A study of Bos taurus with 10 samples.

Results

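The region examined was the stretch of bovine chromosome 18 from 62300000 to 62600000 (build UMD3.1). It was chosen from measured values, because CpG islands there stood out in the abomasum library when each library was averaged over its own sites. All CG sites with at least 8 reads were taken as its members, giving 957 of the 468619 CG sites read in any tissue, each keyed on position and strand. Abomasum was compared with the other tissues first at sites read in both libraries and then over all sites. Since the contrast of abomasum with the rest chose the region, its values are given as a description without a test. There was 1 reduced representation bisulphite sequencing (RRBS) library per tissue, so spreads are SDs over tissues and not replicate errors.

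The 10 tissues were taken from Dominette 01449, a cow of the Hereford breed, and animals related to her, and no group was treated or genetically altered. Skeletal muscle, uterus, nucleated blood cells and mammary gland at d 90 of lactation were from adult females, and testis was from an adult male. Abomasum, ileum, frontal cortex and mammary gland parenchyma were from juvenile females, and rumen was from a male fetus. Tissue, age and sex therefore cannot be told apart, and tissue identity was not checked here because no expression was used. Samples were whole tissue, in which a mix of cell types cannot be told apart from partial methylation within a cell type.

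DNA methylation in mammals is found mainly at cytosines followed by guanine. CpG islands are stretches dense in such sites that usually stay unmethylated, particularly at promoters, whereas islands away from promoters are more often methylated and more variable between tissues. In RRBS the DNA is cut by MspI at CCGG whether or not the inner cytosine is methylated, and reads start at those cuts, so the CG sites that can be read are those close to a cut. Bisulphite converts unmethylated cytosines, and the share of reads that still carry cytosine is the methylation level. The abomasum is the glandular stomach of ruminants.

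Over the whole series, cytosines were covered by a median of 10 reads in abomasum and of 14 to 27 in the other tissues. Of the 204918 CG sites read in abomasum, 58.1 % were read in no other tissue, and of the 237294 read in testis 55.2 % were. In the region, abomasum had 522 CG sites with a median of 9 reads and at most 22, and the other tissues had 307 to 400 sites with medians of 20 to 34 reads. The mean coverage per CG site was 10.3 reads in abomasum and 29.5 ± 4.45 (SD over 9 tissues) in the others. By the exact permutation test of 1 library against 9, two-sided, this gave p = 0.1, which is the smallest value the design allows.

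The sequences below were stitched from the 5-letter contexts deposited with each cytosine, so that only bases near a read cytosine are known. They are forward-strand sequence with every CG in capitals, and an MspI site appears as cCGg. The first set is from the island with the largest excess of abomasum over the rest, and it shows which pieces each library read. The first piece was read in the other 9 tissues and held 2 MspI sites, and the next pieces were read in abomasum alone and held 0.
chr18:62474683-62474729: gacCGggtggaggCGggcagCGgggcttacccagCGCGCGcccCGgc
chr18:62476421-62476433: gcCGaCGgagcag
chr18:62477456-62477474: ggcagCGcctCGggcccCG
The next set is from an island that differed in the opposite direction, first the piece read in abomasum alone and then the piece read in the other 9 tissues.
chr18:62387373-62387393: tgCGcctgCGCGctggctCGg
chr18:62389825-62389875: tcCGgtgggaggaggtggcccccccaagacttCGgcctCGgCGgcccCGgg
Another pair is from the island starting at 62405851, first a piece with no abomasum site and then a piece read in abomasum and 7 other tissues.
chr18:62405878-62405937: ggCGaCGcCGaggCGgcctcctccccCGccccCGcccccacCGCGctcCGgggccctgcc
chr18:62407393-62407444: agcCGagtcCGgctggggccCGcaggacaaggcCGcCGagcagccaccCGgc
The last set holds pieces read in all 10 tissues, where testis, both mammary samples or frontal cortex stood apart. They are in order a piece where testis was low, a piece where both mammary samples were low, and a pair of pieces where frontal cortex was high.
chr18:62336840-62336908: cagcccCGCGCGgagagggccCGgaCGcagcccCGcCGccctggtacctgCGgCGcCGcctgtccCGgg
chr18:62435574-62435624: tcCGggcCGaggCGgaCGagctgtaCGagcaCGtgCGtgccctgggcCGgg
chr18:62514907-62515002: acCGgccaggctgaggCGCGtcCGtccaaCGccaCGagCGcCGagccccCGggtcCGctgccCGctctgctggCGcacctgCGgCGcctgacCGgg
chr18:62521435-62521484: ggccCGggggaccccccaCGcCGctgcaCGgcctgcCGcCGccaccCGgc

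Averaged over all the CG sites of each library, the methylation level of the region was 47.9 % in abomasum. In the other tissues it ranged from 29.0 % in testis through a median of 36.1 % to 39.5 % in nucleated blood cells. Abomasum was above every other tissue, by 12.7 points on average ± 3.64 (SD over 9 tissues), from 8.43 to 18.9 points. At a minimum of 20 reads, which left 17 of the 522 abomasum sites, the mean was 29.0 points. At the sites read in both libraries the picture differed. There were 133 to 179 such sites per pair of tissues, and abomasum was on average 0.863 points higher ± 4.14 (SD over 9 tissues), from -5.00 against frontal cortex to 9.68 against testis. It was higher in 5 of 9 pairs. Without testis the mean over the shared sites was -0.238 points.

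At the 133 sites read in all 10 tissues the level in abomasum was 49.8 %, the fifth lowest. Testis was lowest at 40.1 % and frontal cortex highest at 55.6 %. Ileum at 49.7 % and skeletal muscle at 50.2 % were the neighbours of abomasum in that order, and the mean difference from the other tissues was 0.682 points ± 4.50 (SD over 9 tissues). Across the shared sites, levels in abomasum and in the other tissue had a Pearson correlation of 0.943 with testis to 0.983 with rumen, over 133 and 161 sites. These sites share neighbouring reads and are not independent.

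**Figure D1:**
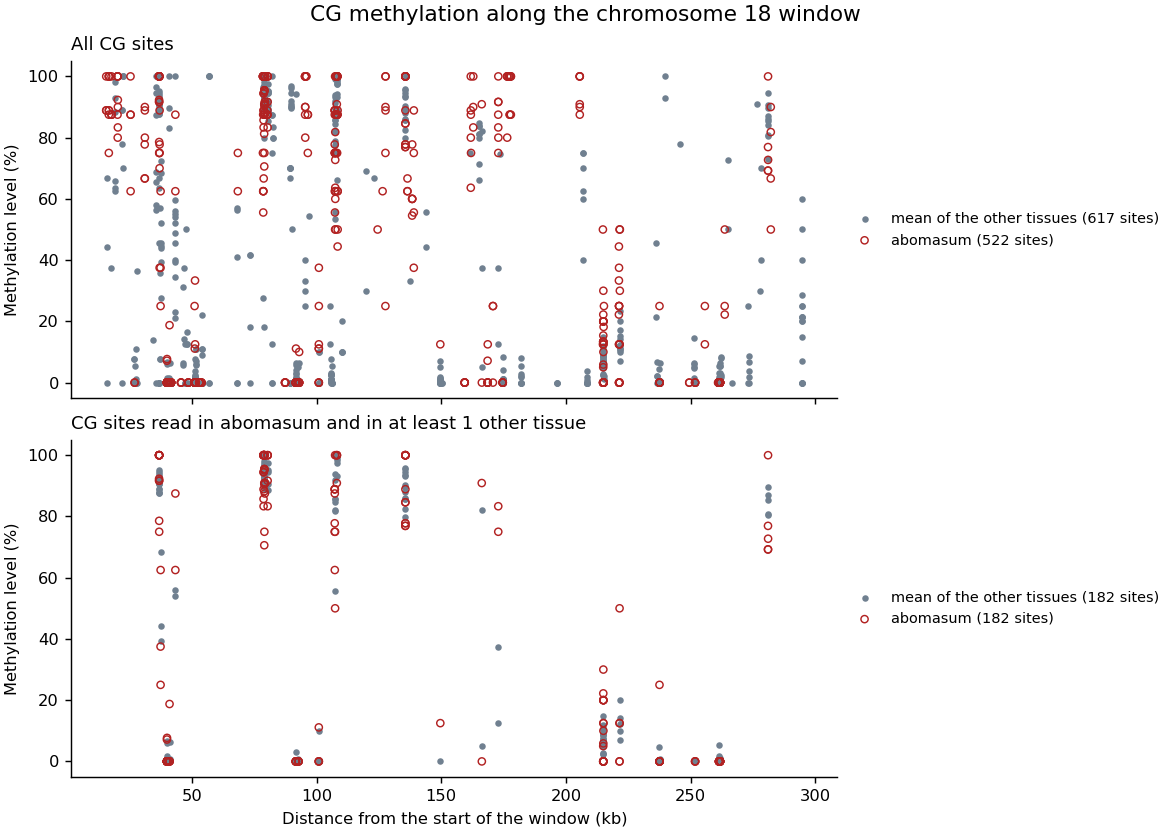
CG methylation level in percent against distance from the start of the region in kb, with 1 point per site and strand for abomasum (open circles) and for the mean of the other tissues that read the site (filled). The upper panel holds all sites and the lower panel the 182 sites read in abomasum and at least 1 other tissue. In the lower panel both kinds of point lie high or low together at most sites. They part at 172.8 kb, where abomasum had 83.3 and 75.0 % and the 1 other tissue 37.5 and 12.5 %. At 43.4 kb abomasum had 87.5 % at a site where the others averaged 54.1 %. The upper panel holds many high abomasum points at places with no point from other tissues.

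**Figure D2:**
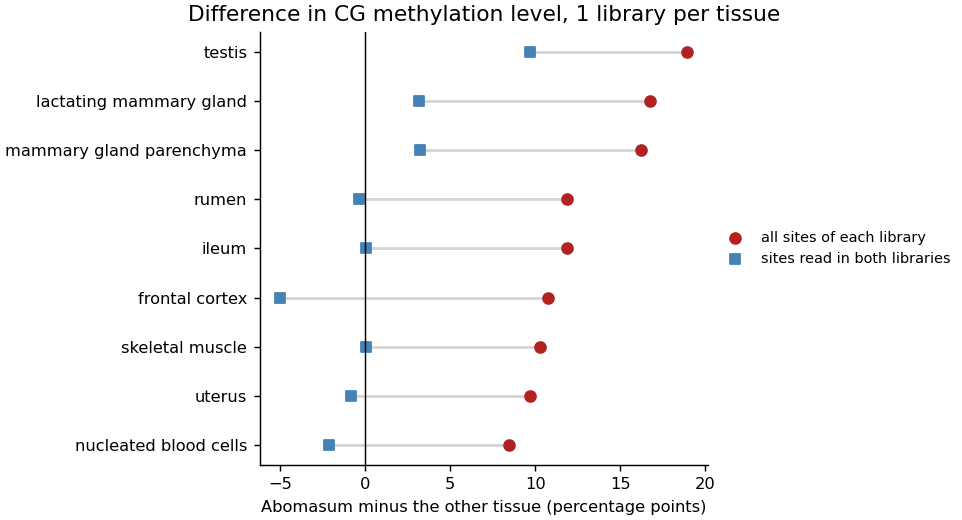
Abomasum minus each other tissue, in percentage points of CG methylation level, over all sites of each library (circles) and over sites read in both libraries (squares), with 1 library per tissue and no error bars. The circles lie between 8.43 and 18.9 and the squares between -5.00 and 9.68.

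The all-site difference was spread unevenly along the region. Abomasum exceeded the mean of the other tissues by 6.87 points over the first 100 kb, by 26.3 points over the middle 100 kb and by 3.63 points over the last 100 kb. At shared sites the same stretches gave 1.18, 0.491 and 0.392 points. Just outside, the 100 kb after the region had 89 abomasum sites at 37.3 % against a median of 48.2 % in the other tissues. The 100 kb before it had 9 abomasum sites at 80.2 % and no shared site. Over the genome, in 434 windows of 300 kb, the median difference was 2.17 points over all sites, and 15.7 % of the windows were at or above the value found here. At shared sites, in 433 windows, the median was -0.0238 points, and 31.2 % of them were at or above 0.863.

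The sites fell into classes by which library read them. Of the 522 abomasum sites, 340 (65.1 %, 95 % Wilson interval 60.9 to 69.1) were read in no other tissue, and the level in abomasum was 48.3 % there and 47.3 % at the 182 sites shared with another tissue. At a minimum of 10 reads, which left 223 abomasum sites, these levels were 45.7 and 60.0 %. The other tissues averaged 46.4 % at the shared sites, and 27.7 % at the 290 sites that abomasum did not read, excluding those of testis alone. Among single tissues, the level at sites unread in abomasum was lowest in mammary gland parenchyma (23.3 %) and highest in nucleated blood cells (33.0 %), and the level at shared sites was lowest in testis (40.1 %) and highest in frontal cortex (51.0 %). Every one of the 9 tissues was lower at the sites that abomasum lacked. The sites read in testis alone, 145 of its 393 (36.9 %), had a level of 29.4 %.

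The classes also differed in where they lay relative to MspI sites, which the choice of the region did not use. A CCGG was found 128 times in the stitched sequence of the region. Of the sites read in abomasum alone, 19.1 % (95 % Wilson interval 15.3 to 23.6) lay within 50 bases of one, with a median distance of 226 bases. Of the shared sites, 91.8 % did, with a median distance of 12 bases, and of the sites read in other tissues but not in abomasum, 92.1 %. By library, 44.4 % of the abomasum CG sites and 95.6 to 100 % of those of the other tissues lay within 50 bases (exact permutation test of 1 library against 9, two-sided, p = 0.1, the smallest the design allows). A CCGG between read pieces could not be seen, which lengthens distances where pieces are short.

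A count free of that limit is the number of CG sites that are themselves part of a CCGG, since this is read from the context of the site. There were 4 among the 340 sites of abomasum alone (1.18 %), 20 among the 182 shared sites (11.0 %) and 69 among the 290 sites of the other tissues (23.8 %). Sites of testis alone, counted apart, had 42 of 145 (29.0 %). In the whole series the shares were 3.11 % at sites of abomasum alone and 13.7 % at shared sites. At sites not read in abomasum, those of testis alone included, it was 28.4 %. The contrast between classes is therefore not shown to be particular to the region. Over the whole series the share inside CCGG was 7.53 % in abomasum and 16.2 to 27.2 % in the other tissues. The abomasum library therefore read a different set of cytosines here and elsewhere. At the sites read in abomasum alone or missing from it, a difference between tissues and a difference between sites cannot be told apart. Why abomasum read other sites was not tested.

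**Figure D3:**
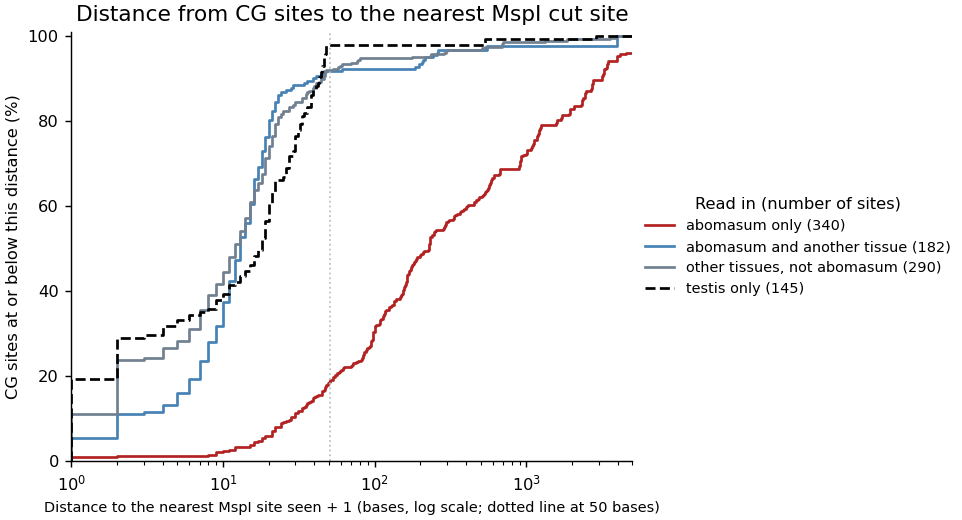
Cumulative share of CG sites in percent against the distance to the nearest CCGG seen, in bases plus 1 on a log axis, for 4 classes of site by the libraries that read them. At 50 bases (dotted line) the curve for sites read in abomasum alone has reached 19.1 % and that for shared sites 91.8 %.

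The study listed 7 CpG islands that start in the region as differentially methylated between some of these tissues, and only their limits were used here. Counting every site, 4 of them had a mean difference of at least 25 points between abomasum and the other tissues. Of those 4, 2 had no shared site, so that the same cytosines could not be compared, and the other 2 differed by less than 5 points at their shared sites.

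The island from 62474102 to 62478488 had 21 abomasum sites at 68.7 %, each with 8 to 13 reads. The other 9 tissues each had 12 sites, at 0 % in testis, a median of 1.90 % and 2.52 % in rumen. Abomasum was thus above all of them, but 0 of its 21 sites was read elsewhere. Its 6 sites in the stretch from 62474591 to 62474727, where all 12 sites of the other tissues lie, had no methylated read. With 11 to 13 reads per site, a count of 0 allows a level of up to 23.1 % at the deepest of them. The high level came from the remaining abomasum sites, in the stretch from 62476423 to 62476440 (4 sites, 95 %) and that from 62477148 to 62477898 (11 sites, 96.6 %), where no other library had a site.

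The island from 62386929 to 62389887 differed in the opposite direction. Its 5 abomasum sites had 12 reads each and none methylated, which allows up to 25 % per site. The other tissues had 7 to 11 sites with levels of 40.6 % in testis, a median of 93.5 % and 98.6 % in uterus, so the groups did not overlap. The abomasum sites lay between 62387375 and 62387398, and the sites of the other tissues began at 62389288 in testis and at 62389827 or later in the rest. No cytosine of the island was read in both abomasum and another tissue.

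The island from 62391419 to 62396572 had 37 abomasum sites at 32.9 %, against 1.61 % in ileum, a median of 3.87 % and 5.97 % in testis. At its 9 shared sites abomasum was at 0 %, and the other tissues lay between 0 and 2.78 %, with a median of 0 %. The stretches from 62391621 to 62391866 and from 62392737 to 62393026 were low in abomasum, at 0.794 % over 14 sites and 1 % over 10 sites, as in the others, whose medians were 4.83 and 1.23 %. Further stretches in the island, from 62395220 and from 62396490, carried the high abomasum level, at 94.8 % over 10 sites and 83.3 % over 3. Testis was the 1 other tissue read in the first of these, at other cytosines, with 32.1 %.

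The island from 62405851 to 62408570 had 45 abomasum sites at 79.8 %, against 9.52 % in testis, a median of 50 % and 58.4 % in skeletal muscle. It held an unmethylated and a methylated piece. The piece from 62405304 to 62406021, which begins before the island, was read in all 9 other tissues, at 0.376 to 10.7 % with a median of 0.894 %, and had no abomasum site. The piece from 62407242 to 62408459 held all 45 abomasum sites, and there the 8 other tissues that read it were at 85.1 to 99.1 % with a median of 90.6 %, above abomasum. Testis had no site in the methylated piece, so its all-site value rests on the unmethylated piece alone. At shared sites the mean difference of abomasum from the 8 tissues was -4.88 points, and 14 of its 45 sites were shared with any.

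The other 3 islands differed by less than 9 points over all sites. At a minimum of 10 reads, however, the difference was 26.3 points in the island starting at 62521024 and 18.6 points in that starting at 62335636. In the island from 62335636 to 62337678, abomasum was at 83.1 % within a range of 47.5 % in testis to 92.1 % in nucleated blood cells, and at 85.5 % against a median of 84.9 % at 17 shared sites. The island from 62521024 to 62521717 was at 19.6 % in abomasum, between 4.04 % in skeletal muscle and 44.2 % in frontal cortex. Its 5 shared sites gave 15 % against a median of 8.21 %. The island from 62580863 to 62581789 had 5 abomasum sites, all shared, at 77.6 % against 56.4 % in testis, a median of 89.6 % and 97.6 % in nucleated blood cells. In all 3, abomasum lay inside the range of the other tissues.

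**Figure D4:**
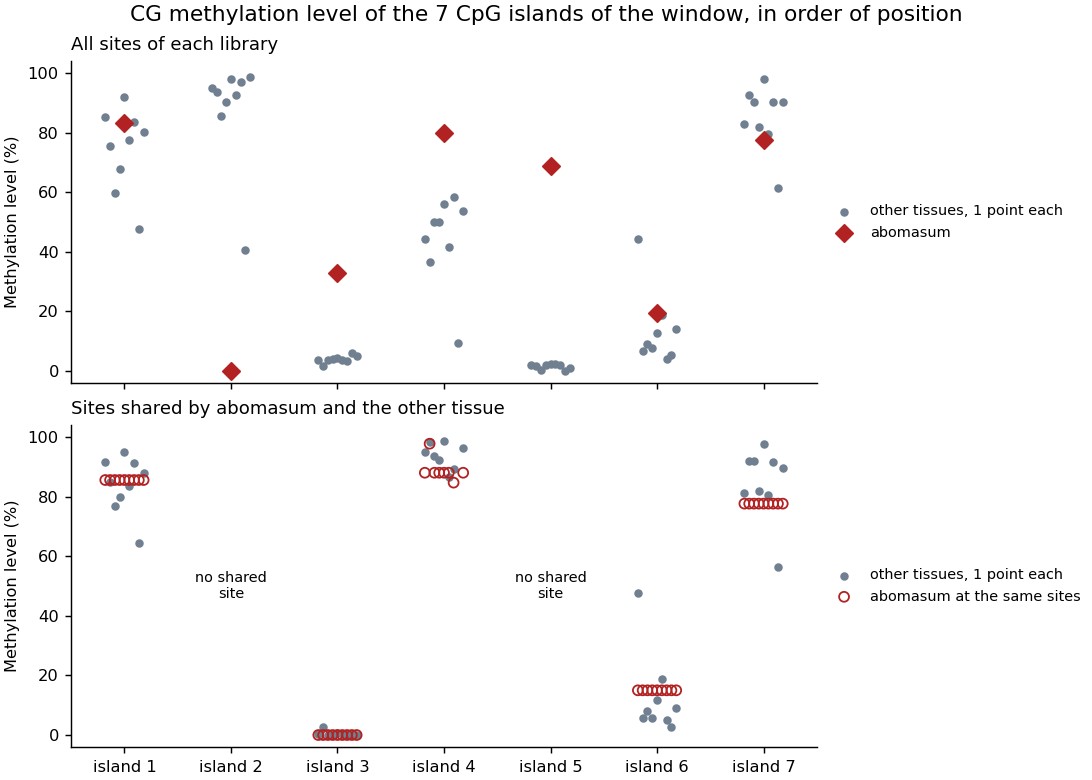
CG methylation level in percent of the 7 islands in order of position, with 1 point per tissue and no error bars. Over all sites (upper panel) abomasum (diamonds) lies outside the other tissues (grey) in islands 2 to 5, whereas at shared sites (lower panel, open circles beside each tissue) it has no shared site in islands 2 and 5, is at 0 % in island 3 and lies between 84.7 and 97.7 % in island 4.

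For comparison, the study listed 836 islands over the genome. Of these, 60 differed by at least 25 points between abomasum and the mean of the other tissues over all sites. Among the 60, 14 had no shared site, and 43 had at least 5, of which 14 still differed by at least 25 points there.

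Joining sites no more than 500 bp apart gave 89 clusters. Of these, 25 were read in abomasum alone (118 sites), 20 held shared sites, 10 were read in abomasum and others at different sites, 20 were read in 1 other tissue and 14 in several others. The clusters of abomasum alone were not uniformly high. Their levels ran from 0 to 96.6 % with a median of 62.5 %, and 7 were above 80 % and 9 below 20 %. A CCGG was seen in 1 of these 25 clusters and in 18 of the 20 with shared sites.

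There were 13 clusters with at least 5 sites read in abomasum and at least 5 other tissues, and over these sites abomasum differed from the median of the other tissues by -12.0 to 6.79 points, with a median absolute difference of 2.08. The lowest value was in the cluster from 62580971 and the highest in that from 62521207, both with 5 such sites. At most 10 clusters were examined singly, 8 with more than 5 such sites and the first 2 by position of the 5 clusters tied at 5. In those 10 the difference was -6.29 to 4.33 points. The clusters with most shared sites were those from 62378488 and 62514794. In the first, over 28 sites, abomasum was at 94.4 %, with 72.4 % in testis, a median of 97.0 % and 98.8 % in nucleated blood cells. The second, over 19 sites, was low throughout, at 9.37 % in abomasum, 2.67 % in skeletal muscle, a median of 5.04 % and 28.1 % in frontal cortex. In 4 of the 10 clusters abomasum lay outside the range of the others, by under 2 points each time. Clusters from 62340002, 62537478 and 62560966 were below 3 % in every tissue at their shared sites.

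**Figure D5:**
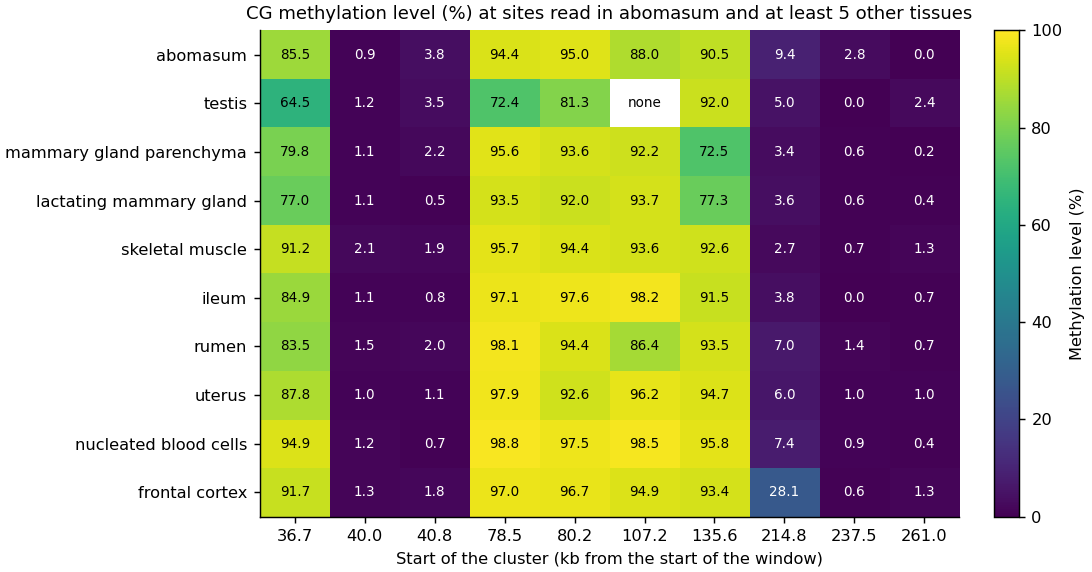
CG methylation level in percent (numbers and colour) in the 10 clusters with most sites read in abomasum and at least 5 other tissues, by start in kb from the start of the region, with 1 library per row. Clusters are high or low in all tissues alike, with testis lower at 36.7, 78.5 and 80.2 kb, both mammary samples lower at 135.6 kb and frontal cortex higher at 214.8 kb.

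Single sites gave the same description. Of the 161 sites read in abomasum and at least 5 other tissues, abomasum was above all the others at 11, below all at 5 and within their range or equal to an end of it at 145. No site was 25 points or more from the nearest other tissue. Against single tissues, between 2 of 161 shared sites (rumen) and 25 of 133 (testis) were 25 points or more apart. No count over the genome is set beside these, so they do not tell whether the region is unusual. The widest gap was at 62537478 on the forward strand, where abomasum had 2 methylated of 8 reads (25 %, 95 % Wilson interval 7.15 to 59.1) and the highest other tissue, uterus, had 6.90 %. At 62343389 on the reverse strand abomasum had 7 of 8 (87.5 %, 52.9 to 97.8) and ileum, the next, 70.0 %. These sites were picked for their gap, and the intervals are no test of it. Intervals cover counting error only, since PCR copies were not told apart.

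Fisher's exact test on reads was run for each pair of tissues over all the CG sites of the genome read in both, its p-values were adjusted by the Benjamini-Hochberg method in each pair, and a site was called if q was below 0.01 and the levels were 25 or more points apart. It compares libraries. Between abomasum and the others, 7 of the 182 shared sites were called (3.85 %), where 4.52 % were called over the genome. Since the region was chosen on this contrast nothing is read from the count. Of the 7 calls, 5 were against testis, all in the stretch from 62379040 to 62379057, where abomasum had 95 to 100 % over 20 to 22 reads and testis 49.1 to 63.8 % over 55 to 80.

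The 36 pairs without abomasum did not enter the contrast that chose the region. However, the study had listed its islands as differentially methylated between some of these tissues. The counts below are therefore not independent of the choice and are a description. In the 36 pairs, 85 of 392 sites were called in at least 1 pair (21.7 %), with 11.0 % over the genome. At sites read in testis and another of those tissues, testis was lower at 57 of 248 (23.0 %), with 10.3 % over the genome, and higher at 3, with 2.46 % over the genome. Frontal cortex was higher than another tissue at 49 of 372 (13.2 %), where 2.87 % were called over the genome, and lower at 1, where 3.36 % were. Genome counts by direction were made for these 2 tissues only. The pair with most calls was nucleated blood cells with testis, at 42 of 247 sites (17.0 %), where 8.54 % were called over the genome. Nucleated blood cells were the higher at all 42. Neighbouring sites are covered by the same reads, so these counts come from few separate stretches. The called sites lay in 14 clusters. A call counts for both tissues of its pair, so a site called between testis and frontal cortex enters the counts of both.

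Among clusters where testis was called lower at 5 or more sites, it had the lowest level in those from 62336725, 62378488, 62380168 and 62580971. It was called lower there at 21 of 22, 14 of 30, 5 of 10 and 5 of 10 sites tested. In the cluster from 62336725, nucleated blood cells were also called higher at 18 sites. Lactating mammary gland and mammary gland parenchyma were called lower there at 8 and 6 sites and higher at 2 and 4. At its reverse-strand sites 62337461, 62337445 and 62337475, testis had 41.2, 40.0 and 60.4 %. Mammary gland parenchyma was lower at these, with 10.3, 6.90 and 40.0 %. Testis was also called lower at 7 of 12 sites in the cluster from 62521207. There, however, its level of 5.49 % was near those of skeletal muscle (4.04 %) and ileum (6.79 %). Frontal cortex was called higher at all 9 sites called in that cluster. Over the 17 sites of the cluster from 62336725 shared with abomasum, testis was at 64.5 %. Lactating mammary gland was at 77.0 %, mammary gland parenchyma at 79.8 % and the rest at 83.5 to 94.9 %. The sites at 62379040 and 62379042, both on the forward strand, were each called lower in testis against all 8 tissues, at 50.9 and 48.1 %, with 96 to 100 % in the other 8 tissues tested. On the reverse strand of these CGs testis had 65.0 and 66.7 %, and lactating mammary gland 86.7 and 53.3 %. Over the 236 sites read in the 9 tissues other than abomasum, testis had the lowest level at 70. No count over the genome is set beside this, so it is not read as a trait of the region. Testis also differed between strands more often than other tissues, by at least 25 points at 15 of 106 CGs read on both, against 0 to 5 in the other tissues. The part of that in its low levels was not tested.

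Frontal cortex stood apart in 2 weakly methylated clusters. In that from 62521207 its level was 44.2 % over 12 sites, with 4.04 % in skeletal muscle to 18.9 % in rumen for the other 8 tissues, and it was called higher at 9 of 12 sites. At 62521453 on the forward strand it had 75.9 % and was called higher against all 8, which had 3.23 to 12.1 %. On the reverse strand of that CG frontal cortex had 46.4 %. In the cluster from 62514794 it was at 24.6 % with 2.42 to 7.20 % in the same 8 tissues, and was called higher at 7 of 23 sites. Abomasum was at 19.6 and 9.80 % in these 2 clusters over all its sites. Over the 236 sites, frontal cortex had the highest level at 45 and nucleated blood cells at 43, again with no count over the genome.

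Both mammary samples were low in the cluster from 62435576. Over its 14 shared sites the levels were 72.5 % in mammary gland parenchyma and 77.3 % in lactating mammary gland, and 90.5 to 95.8 % in the other 8 libraries, abomasum included. At 62435581 on the forward strand they had 43.6 and 43.2 %, and each was called lower against 5 tissues. The reverse strand of that CG had 61.3 and 54.1 %. By contrast, at 62379043 on the reverse strand lactating mammary gland had 53.3 % and was called lower against 6 tissues, while the forward strand of the same CG was at 100 % in that library.

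Single tissues stood apart in 2 further clusters that abomasum barely read or lacked. In that from 62465253, skeletal muscle was at 33.8 % over 8 sites, and the other tissues were at 63.4 % in mammary gland parenchyma to 96.9 % in testis. Abomasum had no site there. In that from 62343367, nucleated blood cells were at 18.8 % over 13 sites, and the other tissues that read it at 42.2 % in uterus to 65.5 % in ileum. Abomasum had 2 sites there, at 75.0 %. Nucleated blood cells were called lower in all 6 sites called in that cluster.

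Cytosines outside CG were not used to choose the region. Their level was 0.756 % in abomasum over 940 sites and 1.33 % ± 0.119 (SD over 9 tissues) in the others, from 1.15 to 1.52 %. Abomasum was lower than all 9 (exact permutation test of 1 library against 9, two-sided, p = 0.1, the smallest the design allows, and 0.1 after Benjamini-Hochberg adjustment over the 3 measures so tested). At a minimum of 10 reads the difference was -0.334 points with p = 0.2 by the same exact permutation test. At cytosines outside CG read in both libraries of a pair, 256 to 340 per pair, abomasum was lower in all 9 pairs, and the mean difference was -0.305 points. Over whole libraries, the study also reported a lower level outside CG in abomasum than in every other tissue except testis. The low level is therefore not shown to be particular to the region. Incomplete conversion adds to these levels in every library, and its part was not tested.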

How the data were processed

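RRBS libraries of 10 bovine tissues, 1 each, were analysed. The authors digested DNA with MspI, selected fragments, aligned bisulphite reads to UMD3.1 and deposited cytosines with at least 8 reads. For each cytosine the authors deposited its total reads as a raw count and its methylation level as a fraction, methylated reads over total reads. A per-cytosine p-value, its FDR and another read count, also deposited, were not used here. Methylated reads were recovered as level times reads, whole at every cytosine within 1e-06.

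Levels were unweighted means over CG sites keyed on position and strand, each tissue from its label. Fisher's exact test with Benjamini-Hochberg adjustment was run on reads for 45 pairs, tested on simulated data. The region, members, islands and lists were chosen with earlier results of these data known. Named were all published islands starting in the region, at most 10 clusters with most sites shared with at least 5 tissues, and sites with the widest abomasum gap or most calls among 36 pairs, at most 3 per cluster. The alternatives were a minimum of 10 or 20 reads, levels weighted by reads, merged strands, other limits of the region, leaving out testis or the deepest sites, and other calling rules. Depth limits precision, since a level resting on 8 reads has few possible values. Genes in the region are not named, since no UMD3.1 annotation was used here. Expression was not analysed here. The software was pandas 2.3.3 and NumPy 2.4.6 under Python 3.11.15, with matplotlib 3.10.9 for plots and seed 1. Fisher's test was computed with Numba 0.67.0 and checked against SciPy 1.17.1 on simulated data.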

Additional observations from a re-analysis of the deposited data

How the results depend on the processing

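Over all sites, the mean excess of abomasum was 16.5 points at a coverage minimum of 10 reads, 29.0 at 20 reads and 18.5 with only sites in the islands. The mean at shared sites moved by less than the SD over tissues under all 8 alternatives, between -0.238 and 3.58 points, and so did the mean at sites read in all 10 tissues under the 5 alternatives run for it. Among islands, the all-site difference of that starting at 62391419 was 43.6 points at a minimum of 10 reads, that of 62474102 was 29.5 at 10 reads and 58.8 weighted by reads, and that of 62521024 was 26.3 at 10 reads. At shared sites the island starting at 62405851 gave 0.589 points at 10 reads. At a minimum of 20 reads no island gave a value. Calls between abomasum and the others numbered 11 at 10 reads, 12 at 20 reads and 3 with reads thinned, where 7 were called. In the 36 other pairs 55 sites were called at 40 points, where 85 were at 25. The share of abomasum sites read in no other tissue, an alternative added after seeing the data, was 52.9 % at 10 reads and 0 % at 20 reads. Outside CG, abomasum was below the mean of the others under every alternative run, with p = 0.2 by the exact permutation test at 10 reads. No paired analysis was possible because each tissue has 1 library. At 9 reads per site, small differences at single abomasum sites were not detectable.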
